A study of Rattus norvegicus with 12 samples.

Results

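The genes of major histocompatibility complex (MHC) antigen presentation and of the immunoproteasome were followed in cultured neonatal rat ventricular myocytes (NRVMs). The set held every gene of the table whose symbol begins with RT1-, the name of the rat MHC, together with B2m, Tap1, Tap2, Tapbp, Tapbpl, Erap1, Calr, Canx, Pdia3, Psmb8, Psmb9, Psmb10, Psme1, Psme2, Nlrc5, Ciita and Cd74. It came to 49 of 18469 genes, with 24 class I and 8 class II RT1 genes, 9 genes of peptide supply and loading, 5 of the immunoproteasome and its activator, and 3 regulators or class II chaperones. RefSeq places 37 of the 49 on chromosome 20, where the rat MHC is.

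MHC class I molecules carry short peptides from inside the cell to its surface, where CD8 T cells and natural killer cells read them. Most of these peptides are cut by the proteasome, are pumped into the endoplasmic reticulum by the Tap1 and Tap2 transporter, and are fitted onto a heavy chain paired with beta-2 microglobulin with the help of tapasin, calreticulin and Pdia3. Interferons replace the 3 catalytic subunits of the constitutive proteasome with those of the immunoproteasome. Class II molecules present peptides from the endocytic route and are restricted mainly to professional antigen-presenting cells. Resting heart muscle cells are known for low class I levels.

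RNA was sequenced from 12 libraries of Sprague-Dawley rat NRVMs, 3 in each of 4 groups. The siNeg cells received a control siRNA and the siSlc25a26 cells an siRNA against Slc25a26, the mitochondrial carrier of S-adenosylmethionine. The siNeg.PE and siSlc25a26.PE cells received the same siRNAs and, from 12 h after transfection, phenylephrine (PE) for 36 h, an adrenergic agonist that causes hypertrophy of cardiomyocytes. All groups were transfected, so no group shows untouched cells, and the number of siRNAs per gene and the source of each replicate culture were not given in the sources used here. The p-values therefore measure the spread between these libraries, which may be technical.

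The libraries held 24770972 to 28709049 counts each. All 11 cardiomyocyte markers were tested in every comparison and their summed level ran from 36200 to 84310 CPM (counts divided by the scaled size of the library, so that libraries can be compared). Fibroblast markers were present as well, at 8779 to 23680 CPM summed over 10 genes, while 18 macrophage and dendritic markers summed to 51.1 to 164.5 CPM. Slc25a26 itself stood at 33.2, 31.6 and 29.2 CPM in siNeg and at 15.8, 14.8 and 14.7 CPM in siSlc25a26, a fall of 1.08 on the log2 scale (SE 0.08, adjusted p = 1.08e-05, edgeR quasi-likelihood test). In the presence of PE it stood at 113, 106 and 86.2 CPM in siNeg.PE and at 102, 106 and 98.8 CPM in the siSlc25a26.PE-labelled libraries. These groups overlapped, with a log2 difference of -0.0062 (SE 0.10, adjusted p = 0.969), so the level of the targeted gene did not bear out the label of the siSlc25a26.PE libraries at the time of harvest. In bulk RNA, fewer cells of a type and less RNA per cell cannot be told apart.

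RefSeq promoter sequence (build GRCr8, from 250 bases before to 50 after each start) was at hand for 42 of the 49 genes. The decamer GAAANNGAAA, the core of the interferon-stimulated response element, was searched on both strands. It was found in 10 of the 42 genes, and in 3.92% of all 33469 promoter entries of the same length. Also searched were TTCNNNGAA, found in 2 of the 42 genes and 8.87% of all entries, and CCAAT, found in 28 of the 42 and 37.5%. No RT1-A, RT1-CE or RT1-T24 window at hand held the GAAANNGAAA decamer. Stretches of 60 bases are printed below because they carry this decamer in the genes whose levels are described afterwards, 5′ to 3′ on the strand of the gene, with the decamer or its reverse complement in capitals. A match describes the letters only and is not evidence of binding. The search asked for an exact string, so a window without it is not evidence that no such element is present.
Tap1 (chr20:4668630-4668689, minus strand): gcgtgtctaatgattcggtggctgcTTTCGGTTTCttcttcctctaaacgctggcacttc
Tap2 (chr20:4652303-4652362, minus strand): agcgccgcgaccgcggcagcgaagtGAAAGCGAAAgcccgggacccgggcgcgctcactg
Tapbp (chr20:4967878-4967937, minus strand): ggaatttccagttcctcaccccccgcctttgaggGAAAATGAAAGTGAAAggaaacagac
Psmb8 (chr20:4657026-4657085, minus strand): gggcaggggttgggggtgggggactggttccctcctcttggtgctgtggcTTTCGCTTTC
Psmb10 (chr19:50743331-50743390, minus strand): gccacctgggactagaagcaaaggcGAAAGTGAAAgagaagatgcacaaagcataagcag
Psme2 (chr15:33052770-33052829, minus strand): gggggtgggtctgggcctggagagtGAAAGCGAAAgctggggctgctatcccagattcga
B2m (chr3:129549155-129549214, plus strand): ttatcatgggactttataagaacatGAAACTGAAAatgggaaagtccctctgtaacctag
RT1-N3 (chr20:2666257-2666316, plus strand): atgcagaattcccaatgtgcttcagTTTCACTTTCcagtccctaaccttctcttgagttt
RT1-S3 (chr20:2675391-2675450, plus strand): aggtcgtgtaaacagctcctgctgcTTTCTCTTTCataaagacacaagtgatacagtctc
RT1-S2 (chr20:2654872-2654931, plus strand): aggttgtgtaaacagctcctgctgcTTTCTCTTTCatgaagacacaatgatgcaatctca

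In Tapbp 2 copies of the decamer overlap, and in Psmb10 a second copy lies at bases -17 to -8 from the start, outside the printed stretch. The copy in Psmb8 runs from base -4 to base 6 and so crosses the start. RT1-S3 and RT1-S2 carry the same decamer in closely similar surroundings, and the first had the highest FPKM of all class I rows in siSlc25a26 while the second stayed under 0.2 CPM in every library. In the RefSeq gene order Tap2, Psmb8, Tap1 and Psmb9 follow each other, and Tap1 and Psmb9 point away from each other with 457 bases between their starts in GRCr8. No decamer was found in the Psmb9 window.

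The first comparison, at rest without PE, set siSlc25a26 against siNeg. As given above, Slc25a26 was lower in siSlc25a26 but still present. Nearly the whole class I route was higher in siSlc25a26 than in siNeg. Of 49 genes 42 had enough counts to be tested, and 33 were called higher past a 1.5-fold change with an adjusted p below 0.05, where 8.92% of all 13829 tested genes were called higher. Cd74 alone was called lower, against 7.20% of all tested genes. The median log2 fold change of the 42 was 3.0 (2.92 with RT1-M1-2, which had no count in siNeg, at its lower bound), beside 0.01 over all tested genes. RT1-M1-2, RT1-CE4, RT1-O1, RT1-Ba and RT1-Da passed the count filter only through siSlc25a26, so they could hardly be called other than higher. When 10 counts were required in every library, 28 members were called higher and the median was 2.95.

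Of 24 class I RT1 genes 19 were tested and 18 were called higher, with a median log2 fold change of 3.51 (3.38 with RT1-M1-2 at its bound). RT1-M1-2, RT1-CE4 and RT1-O1 were among the 18 and passed the count filter only through siSlc25a26. RT1-S3 was at 17.8, 20.2 and 16 CPM in siNeg and at 908, 877 and 927 CPM in siSlc25a26. The groups lay far apart, with a log2 fold change of 5.62 (SE 0.09, adjusted p = 5.77e-10, edgeR quasi-likelihood test). RT1-A2, a row of the classical class I locus that presents peptides to T cells, went from 28.8, 26.7 and 27.5 CPM to 388, 369 and 351 CPM, a log2 fold change of 3.71 (SE 0.06, adjusted p = 5.77e-10, edgeR). RT1-CE5, a class I gene of the C/E region, went from 56.3, 53.6 and 49.5 CPM to 466, 429 and 438 CPM, a log2 fold change of 3.04 (SE 0.07, adjusted p = 2.36e-09, edgeR). In both the lowest siSlc25a26 library was several times the highest siNeg library.

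Several rows rose from low control levels. RT1-T24-3 was at 1.74, 1.45 and 1.07 CPM in siNeg and at 127, 122 and 134 CPM in siSlc25a26, 88.1-fold higher in the fit. RT1-T24-1 went from 1.20, 1.37 and 0.738 CPM to 73.8, 64.5 and 67.7 CPM, and RT1-CE7 from 1.60, 1.53 and 1.73 CPM to 50.5, 47.5 and 49.7 CPM. RT1-M1-2 had 0 counts in all siNeg libraries and 21, 25 and 24 counts in siSlc25a26, which is at least 7.12-fold higher when siNeg is set to 3 counts per library. RT1-M3-1, which presents formylated peptides, rose least among the called class I rows, from 4.20 ± 0.23 to 14.3 ± 1.0 CPM (SD, n = 3), a log2 fold change of 1.74. The other called rows rose between these. RT1-A1, of the classical locus, was at 21.3 ± 1.5 CPM in siNeg and 191.2 ± 4.7 CPM in siSlc25a26 (3.14, SE 0.07). RT1-N3, whose promoter stretch is shown above, went from 9.64 ± 1.57 to 81.7 ± 2.5 CPM (3.06, SE 0.11), and RT1-N2 from 3.88 ± 0.39 to 100.8 ± 7.2 CPM (4.67, SE 0.10). RT1-CE2, RT1-CE3, RT1-CE10 and RT1-CE13 had log2 fold changes of 3.23, 3.32, 3.38 and 2.62. Low rows were called as well. RT1-CE4 had 7, 0 and 0 counts in siNeg and 62, 60 and 54 in siSlc25a26, and RT1-O1 had 1, 1 and 1 counts and 13, 15 and 14 counts. RT1-M6-2 was tested and not called (0.47, SE 0.36, adjusted p = 0.314, edgeR), and RT1-M2, RT1-M6-1, RT1-M10-1, RT1-S2 and RT1-T18 had too few counts for a test.

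Many class I RT1 genes are known to be close copies of each other, so reads can be divided among them; the identity of the rows was not measured here. Between 58.3% and 79.2% of the class I rows of a library held counts that were not whole numbers, beside 20.8% to 21.9% of all rows, and counts stop being whole when a read is divided among rows. Single rows are therefore uncertain and the sum over the 24 rows was also taken. The sum was 205, 196 and 178 CPM in siNeg, 178, 163 and 149 CPM in siNeg.PE, 3015, 2851 and 2915 CPM in siSlc25a26, and 1929, 1923 and 1663 CPM in siSlc25a26.PE. It was 15.2-fold higher in siSlc25a26 than in siNeg, and 10.1-fold when only the RT1-A and RT1-CE rows were added up.

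The make-up of the sum shifted too. RT1-A and RT1-CE rows together held 69.0% ± 1.4 of the class I counts in siNeg and 45.8% ± 0.8 in siSlc25a26 (SD, n = 3). RT1-S3 went the other way, from 9.34% ± 0.87 in siNeg to 30.9% ± 0.8 in siSlc25a26. The RT1-T24 rows held 12.2% ± 0.6 and 16.5% ± 0.05. In each of these shares the 3 libraries of one group lay outside the range of the other.

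**Figure D1:**
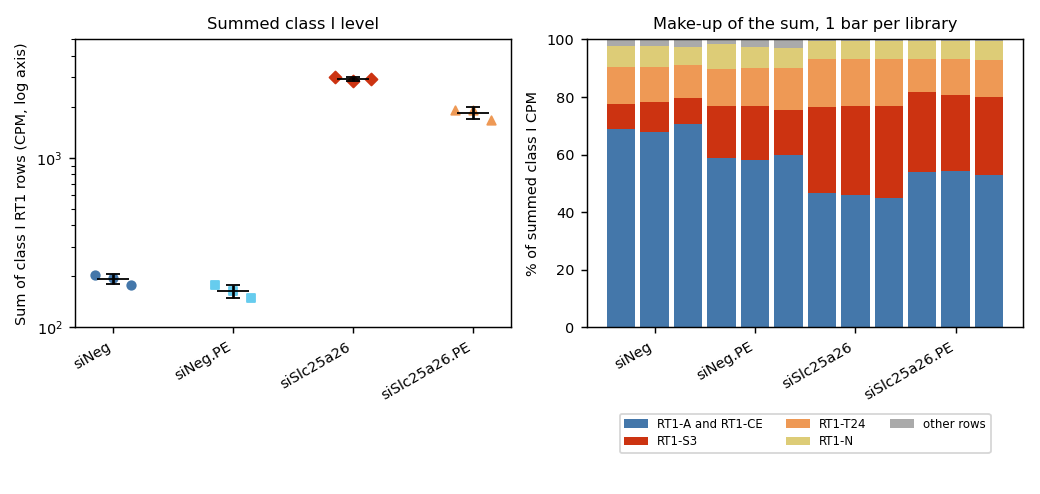
Left, summed CPM of the 24 class I RT1 rows in each library on a log axis, with the group mean and SD (n = 3). Right, the percent of that sum held by the RT1-A and RT1-CE, RT1-S3, RT1-T24, RT1-N and other rows, 1 bar per library in the order of the groups. The siSlc25a26 sums lie between 2851 and 3015 CPM and the siNeg sums between 178 and 205 CPM, and RT1-S3 takes a larger part of the bars in siSlc25a26.

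B2m, the light chain shared by all class I molecules, rose with them. It was at 276, 304 and 252 CPM in siNeg and at 1734, 1678 and 1760 CPM in siSlc25a26, a log2 fold change of 2.61 (SE 0.08, adjusted p = 1.69e-08, edgeR). Per length, the class I rows summed to 0.88 ± 0.07 times the FPKM of B2m in siNeg and to 2.18 ± 0.06 times in siSlc25a26 (SD, n = 3). The heavy chain rows thus gained more than the light chain.

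The peptide transporter and its loading partners followed. Tap1 was at 18.5, 16.3 and 16.9 CPM in siNeg and at 298, 268 and 288 CPM in siSlc25a26, a log2 fold change of 4.02 (SE 0.07, adjusted p = 7.87e-10, edgeR). Tap2, the other subunit of the transporter, rose from 10.8 ± 0.7 to 72.6 ± 3.7 CPM (log2 fold change 2.72, SE 0.07). Tapasin (Tapbp), which bridges the transporter and the heavy chain, rose from 34.3 ± 2.7 to 270.6 ± 18.2 CPM (2.95, SE 0.08), and its relative Tapbpl, a peptide editor, from 22.3 ± 2.2 to 79.1 ± 3.9 CPM (1.80, SE 0.08). Erap1, which trims peptides in the endoplasmic reticulum, rose only from 51.8 ± 1.9 to 81.7 ± 3.6 CPM (0.63, SE 0.05, adjusted p = 2.93e-05, edgeR), just past the 1.5-fold threshold.

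The general chaperones of the endoplasmic reticulum were not called. Calr was at 1150 ± 90 CPM in siNeg and 1382 ± 51 CPM in siSlc25a26, with a log2 difference of 0.24 (SE 0.06). The differences were 0.21 (SE 0.06) for Canx and 0.15 (SE 0.05) for Pdia3, all with an adjusted p under 0.05 in edgeR but a fold change below 1.5. These proteins fold glycoproteins of many kinds. Of 12 further genes of peptide trimming and folding, 1 was called higher (Lnpep, an endosomal aminopeptidase that trims peptides for cross-presentation, 1.07, SE 0.19), with a median of 0.18 over the list.

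All 5 genes of the immunoproteasome and of its PA28 activator were called higher. Psmb8, the inducible chymotrypsin-like subunit, was at 7.10, 6.22 and 5.46 CPM in siNeg and at 183, 165 and 168 CPM in siSlc25a26, a log2 fold change of 4.76 (SE 0.09, adjusted p = 1.25e-09, edgeR). Psmb9 rose from 5.32 ± 0.74 to 109 ± 8 CPM (4.33, SE 0.10), and Psmb10 from 12.3 ± 1.6 to 93.0 ± 10.3 CPM (2.89, SE 0.11). The activator subunits were already expressed at rest and rose less. Psme2 went from 75.8 ± 4.1 to 214.8 ± 4.1 CPM (1.48, SE 0.06), and Psme1 from 385.7 ± 14.4 to 672.6 ± 34.2 CPM (0.78, SE 0.06).

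The constitutive subunits that the inducible ones replace were not called. Among Psmb5, Psmb6, Psmb7 and 3 other proteasome genes listed with them, only Psme4, an activator of another kind, was called higher (1.06, SE 0.18, adjusted p = 0.00143, edgeR). Its siNeg libraries spread from 70.0 to 131 CPM. Psmb5 was at 145, 147 and 129 CPM in siNeg and at 120, 118 and 120 CPM in siSlc25a26 (log2 difference -0.26, SE 0.06). The differences were 0.03 (SE 0.06) for Psmb6 and 0.04 (SE 0.05) for Psmb7.

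Within each pair, the share of the inducible subunit was taken from FPKM values, which allow for gene length. These are shares of RNA, and the make-up of assembled proteasomes was not measured. Psmb8 made up 3.63%, 3.15% and 3.16% of Psmb8 and Psmb5 together in siNeg and 54.1%, 51.8% and 51.8% in siSlc25a26. Psmb9 made up 3.44% ± 0.27 of its pair with Psmb6 in siNeg and 41.4% ± 2.2 in siSlc25a26, and Psmb10 6.51% ± 0.64 and 34.4% ± 3.0 of its pair with Psmb7 (SD, n = 3). No siNeg library overlapped any siSlc25a26 library. With 3 libraries against 3 the exact two-sided permutation test cannot go below p = 0.1, and it gave 0.1 for all 12 contrasts of the 3 pairs in the 4 comparisons, also after adjustment over the 12.

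**Figure D2:**
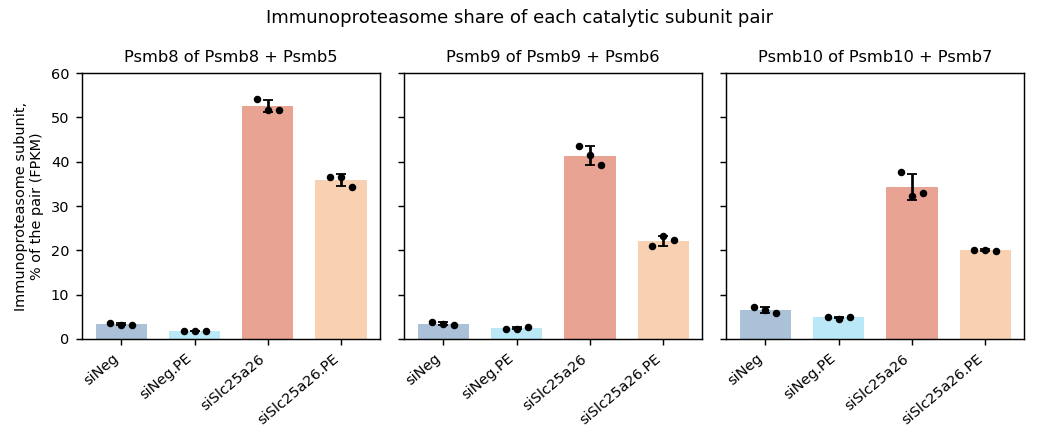
Percent of the RNA of each catalytic subunit pair that was of the immunoproteasome subunit, from FPKM, in the 4 groups. Bars give the mean, lines the SD (n = 3) and points the libraries. The mean Psmb8 share is 3.31% in siNeg, 1.77% in siNeg.PE, 52.5% in siSlc25a26 and 35.9% in siSlc25a26.PE.

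Nlrc5, the transactivator of class I genes, was at 4.78, 3.89 and 3.10 CPM in siNeg and at 66.9, 60.4 and 68.4 CPM in siSlc25a26, a log2 fold change of 4.03 (SE 0.13, adjusted p = 3.65e-08, edgeR). The length-normalised values of the same gene rose far less, from 6.24 ± 2.0 to 13.5 ± 1.0 FPKM (SD, n = 3). FPKM per CPM of Nlrc5 fell from 1.59 in siNeg to 0.207 in siSlc25a26, and this ratio depends on the transcript length that the authors' processing assigned to the gene. Of 32 members with a mean of at least 1 CPM in every group, 3 had an FPKM per CPM that varied over 1.5-fold between groups. The others were RT1-T24-1 and RT1-T24-4, in which FPKM rose more than CPM, and the remaining members varied by at most 1.15-fold.

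**Figure D3:**
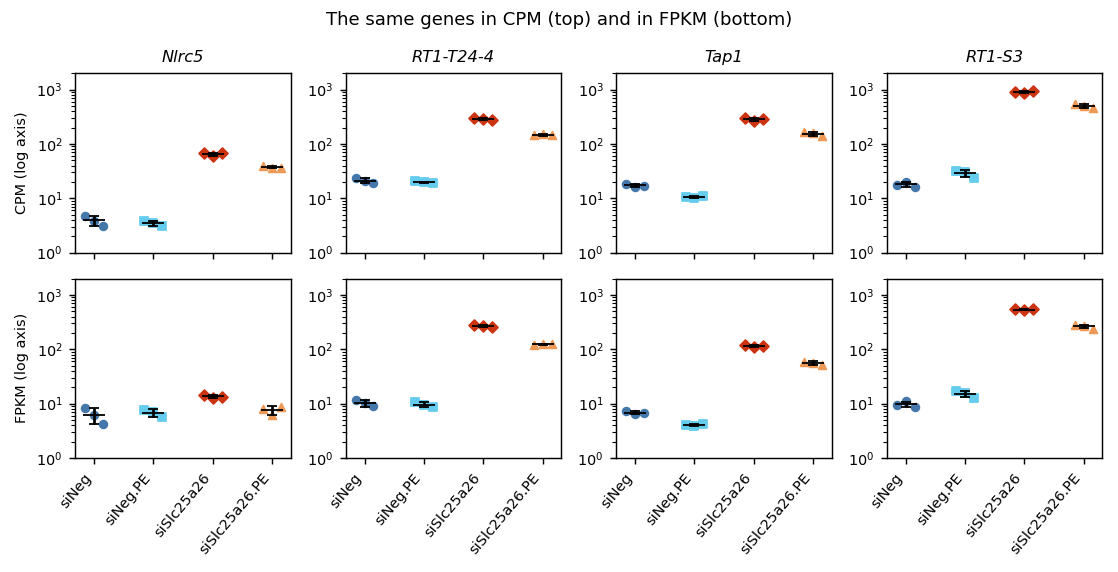
CPM (top) and FPKM (bottom) of Nlrc5, RT1-T24-4, Tap1 and RT1-S3 in each library on log axes, with the group mean and SD (n = 3). For Nlrc5 the groups are much closer in FPKM than in CPM (6.24 and 13.5 FPKM, against 3.92 and 65.2 CPM, in siNeg and siSlc25a26), while Tap1 and RT1-S3 keep the same spacing on both scales.

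Ciita, the transactivator of class II genes, was not called. It was at 1.05, 1.22 and 1.22 CPM in siNeg and at 2.01, 1.52 and 1.63 CPM in siSlc25a26 (log2 difference 0.54, SE 0.20, adjusted p = 0.0578, edgeR). The class II genes were low throughout, and of 8 RT1 class II genes 6 were tested and 3 were called higher. RT1-DMa, a chain of the molecule that exchanges class II peptides, rose from 5.96 ± 0.46 to 10.5 ± 0.9 CPM (0.78, SE 0.11, adjusted p = 0.000608, edgeR). The other 2 had few counts and passed the count filter only through siSlc25a26.

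RT1-Ba, the alpha chain of a class II molecule, had 3, 3 and 3 counts in siNeg and 20, 21 and 21 in siSlc25a26. RT1-Da, the alpha chain of the other main class II molecule, had 1, 2 and 1 counts and 27, 24 and 22 counts. Their levels stayed under 1 CPM in every library. RT1-DMb, the partner of RT1-DMa, was at 3.82 ± 0.56 CPM in siNeg and 4.68 ± 1.54 CPM in siSlc25a26 (0.27, SE 0.23). It was not called, nor were RT1-Db1 (0.84, SE 0.31) and RT1-Db2 (0.08, SE 0.28), and RT1-Bb and RT1-DOa had too few counts for a test.

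Cd74, the invariant chain that guards class II molecules on their way to the endosome, fell in siSlc25a26. It was at 14.5, 19.1 and 14.4 CPM in siNeg and at 7.42, 5.95 and 7.09 CPM in siSlc25a26, with a log2 fold change of -1.26 (SE 0.14, adjusted p = 0.000164, edgeR). Macrophage and dendritic markers moved with it. Of 18 such markers 14 were tested, 10 were called lower and 0 higher, with a median of -0.84, and their sum ranged from 136.6 to 164.5 CPM in siNeg and from 78.3 to 86.1 CPM in siSlc25a26. Cd163, one of the markers that define macrophages, had 0 counts in all libraries but siNeg replicate 1, and none of the 18 was at 0 in every library. The part of these cells in the Cd74 values was not tested. Fibroblast markers were lower as well (6 of 10 called, median -0.66), 1 of 11 cardiomyocyte markers was called lower and none higher, and 5 lymphocyte markers summed to at most 5.44 CPM in any library, with 2 tested, Cd8a called higher (1.41, SE 0.38) and Cd4 called lower (-1.06, SE 0.16). The class I genes moved the opposite way to the macrophage and fibroblast markers, and which cells carried the class I RNA was not tested.

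Other genes that act on the same route were described from a fixed list. Of 19 transcription factors that act on MHC and interferon-induced promoters 8 were called higher. Irf7, an interferon-induced regulator of interferon genes, went from 35.4, 39.2 and 29.9 CPM to 2631, 2333 and 2435 CPM (6.12, SE 0.11). Stat2 and Irf9, which bind promoters of interferon-induced genes as parts of 1 complex, were called with log2 fold changes of 2.79 (SE 0.07) and 2.20 (SE 0.06). Irf1, an activator of Psmb9 and Tap1, was called at 2.0 (SE 0.06). The median over all 19 was 0.49.

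Among 13 interferon, receptor and kinase genes 12 were in the table, 8 were tested and 2 were called higher. Ifnb1, interferon beta, had 1, 0 and 0 counts in siNeg and 50, 53 and 55 counts in siSlc25a26 (adjusted p = 1.36e-05, edgeR). It passed the count filter only through siSlc25a26. Jak2, a receptor kinase, was at 0.94 (SE 0.13), and its siNeg libraries spread from 27.1 to 41.6 CPM. Of 8 tested genes of the class II route outside the set 3 were called higher, led by Lgmn, an endosomal protease, at 1.70 (SE 0.05). Among 6 tested class I-like genes outside RT1, Hfe, which controls iron uptake, was called higher (1.87, SE 0.28) and Fcgrt, the receptor that recycles antibody, lower (-0.76, SE 0.08).

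**Figure D4:**
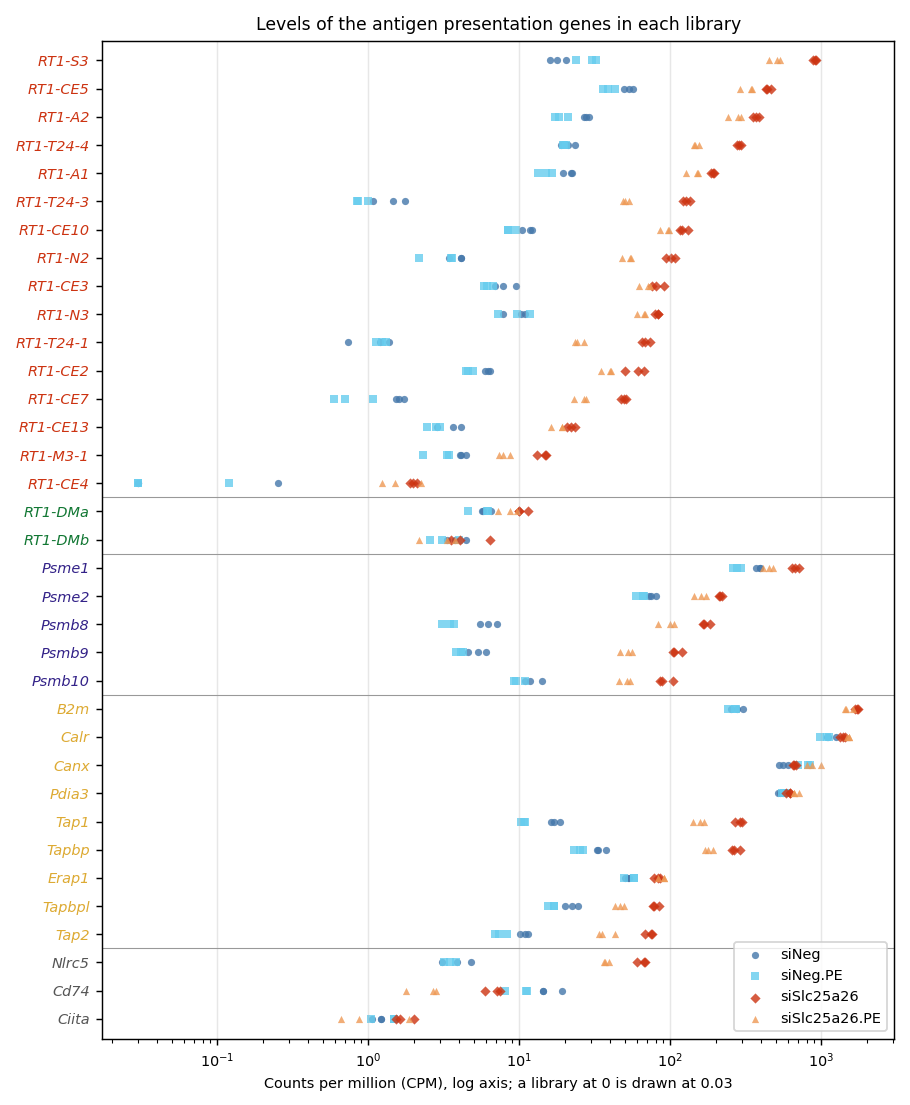
CPM of the 35 members with a mean of at least 1 CPM in some group, on a log axis, with 1 point per library and 3 per group. Rows are grouped by role, from class I RT1 at the top to regulators at the bottom, and ordered within a role by their mean in siSlc25a26. Red and orange points lie right of the blue ones in nearly all class I, Tap and immunoproteasome rows, and left of them for Cd74.

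With PE in both arms, the libraries labelled siSlc25a26.PE were set against siNeg.PE. The first comparison did not use these libraries, and hypertrophy of the cells was not examined here. Of 38 tested members 29 were called higher, beside 7.71% of all 13671 tested genes, and 1, Cd74, was called lower, beside 8.10%. RT1-CE4, among the 29, had 0, 0 and 3 counts in siNeg.PE and passed the count filter only through the siSlc25a26.PE-labelled libraries. The median log2 fold change was 2.74, beside -0.0028 over all genes. As given above, Slc25a26 itself was not lower in these libraries.

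RT1-S3 was at 32.1, 30.5 and 23.6 CPM in siNeg.PE and at 534, 509 and 449 CPM in the siSlc25a26.PE-labelled libraries (4.10, SE 0.13, adjusted p = 3.44e-08, edgeR). RT1-T24-3 showed the steepest change at 5.81 (SE 0.11), from 0.896 ± 0.086 to 50.7 ± 2.3 CPM (SD, n = 3). Of 17 tested class I rows 16 were called higher, with a median of 3.39, and the class I sum was 11.3-fold higher. B2m averaged 261.5 ± 17.2 CPM in siNeg.PE, and 1501 ± 96 CPM was measured in the siSlc25a26.PE-labelled libraries (2.51, SE 0.08).

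The peptide route gave like values. Tap1 went from 10.7, 10.2 and 11 CPM to 167, 157 and 140 CPM (3.85, SE 0.09, adjusted p = 5.44e-09, edgeR) and Psmb8 from 3.70, 3.46 and 3.07 CPM to 106, 99.0 and 82.5 CPM (4.80, SE 0.12, adjusted p = 1.17e-08, edgeR). All 5 genes of the immunoproteasome and PA28 and 6 of 9 genes of supply and loading were called higher. Calr (0.50, SE 0.07), Pdia3 (0.24, SE 0.06) and Canx (0.17, SE 0.09) were again not called. The Psmb8 share of its pair was 1.77% ± 0.03 in siNeg.PE and 35.9% ± 1.3 in the libraries labelled siSlc25a26.PE.

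Nlrc5 was called at 3.41 (SE 0.10, adjusted p = 2.52e-08, edgeR) from counts, but in FPKM the groups overlapped, at 7.74, 6.99 and 5.67 in siNeg.PE and 7.86, 6.20 and 8.79 in the libraries labelled siSlc25a26.PE, and limma on log2(FPKM + 1) gave 0.14 and no call. The call for Nlrc5 here thus rests on the count scale. RT1-DMa was the only class II gene called, at 0.60 (SE 0.16, adjusted p = 0.015, edgeR), and the call was lost without siNeg.PE replicate 2 (0.47), without siSlc25a26.PE replicate 1 (0.51) and without siSlc25a26.PE replicate 2 (0.60).

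Cd74 was at 11.3, 8.05 and 11.1 CPM in siNeg.PE and at 2.81, 2.66 and 1.78 CPM in the siSlc25a26.PE-labelled libraries, a log2 fold change of -2.08 (SE 0.20, adjusted p = 7.84e-05, edgeR). Of the macrophage and dendritic markers 13 were tested here, 3 were called lower and 1 higher, with a median of -0.31 and sums of 73.5 to 86.4 CPM and of 51.1 to 63.2 CPM. Ifnb1 had 0 counts in all siNeg.PE libraries and 4, 7 and 7 counts in the libraries labelled siSlc25a26.PE, at least 1.98-fold higher when siNeg.PE is set to 3 counts per library. Of the 19 transcription factors 7 were called higher, among them Irf7 (6.77, SE 0.19) and Stat2 (2.46, SE 0.08).

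**Figure D5:**
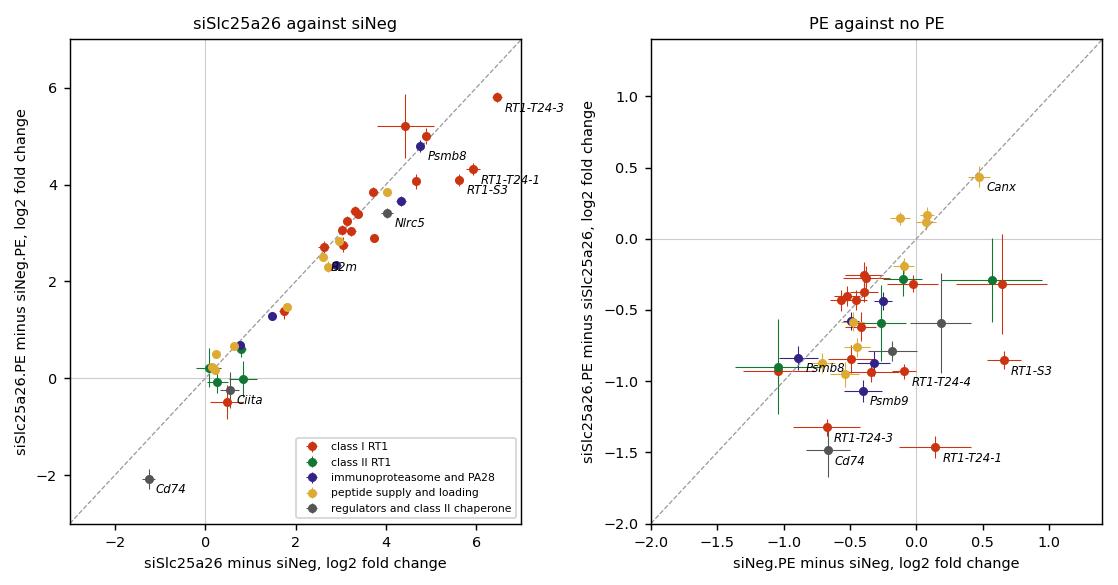
Log2 fold changes with SE from edgeR, coloured by role, with a dashed line of equality. Left, siSlc25a26 against siNeg without PE (x) and with PE (y) for the 38 members tested in both. Right, PE against no PE in siNeg (x) and in siSlc25a26 (y) for the 37 members tested in both. On the left most genes lie near the line, with RT1-S3 (5.62 and 4.10) and RT1-T24-1 (5.93 and 4.32) below it. On the right RT1-S3 has 0.66 on x and -0.85 on y.

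PE by itself, in siNeg cells, moved these genes little. Of 37 tested members 1 was called higher, beside 12.4% of all 13719 tested genes, and 5 were called lower, beside 8.24%. The median was -0.38, beside 0.00016 over all genes. With no fold change asked for, 18 members were lower and 2 higher at an adjusted p under 0.05 in edgeR. Of all 13719 tested genes 3329 were lower and 3456 higher at that cut. Psmb8 fell from 7.10, 6.22 and 5.46 CPM to 3.70, 3.46 and 3.07 CPM (-0.89, SE 0.15, adjusted p = 0.00169, edgeR), and Tap1 from 18.5, 16.3 and 16.9 CPM to 10.7, 10.2 and 11 CPM (-0.71, SE 0.09, adjusted p = 0.000582, edgeR). In both genes the groups did not overlap.

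The other called members were low or close to the threshold. RT1-CE7 fell from 1.62 ± 0.11 to 0.791 ± 0.253 CPM (-1.04, SE 0.26), a call lost without siNeg.PE replicate 2 (-0.95). RT1-Db2, a class II beta chain under 1 CPM, was at -1.04 (SE 0.33), and its call was lost without any one of siNeg replicates 1 (-1.10), 2 (-1.05) and 3 (-0.96) or siNeg.PE replicates 1 (-0.97) and 3 (-0.82).

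Cd74 was at -0.67 (SE 0.17, adjusted p = 0.0112, edgeR), with its call lost without siNeg replicate 2 (-0.52) or siNeg.PE replicate 2 (-0.52). Of the macrophage and dendritic markers 11 of 14 tested were called lower, with a median of -0.97, and their part in this value was not tested. RT1-S3 was called higher at 0.66 (SE 0.13, adjusted p = 0.0039, edgeR), with libraries of 17.8, 20.2 and 16 CPM against 32.1, 30.5 and 23.6 CPM. It went to 0.58, below the threshold, without siNeg replicate 3 or without siNeg.PE replicate 1.

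The libraries labelled siSlc25a26.PE had lower levels than siSlc25a26 over much of the set. Slc25a26 itself was higher in them (2.77, SE 0.06, adjusted p = 1.49e-08, edgeR), and it was also higher with PE in siNeg (1.69, SE 0.10). The part of its level in the differences below was not tested. Of 42 tested members 20 were called lower in the libraries labelled siSlc25a26.PE than in siSlc25a26, beside 10.4% of all 13776 tested genes. None was called higher with edgeR or with DESeq2 or limma-voom (0 each), beside 10.1% of all tested genes. With edgeR 3 had an adjusted p under 0.05 in that direction, but a fold change below 1.5. With no fold change asked for, 3634 of all tested genes were higher at that adjusted p. The median was -0.60, beside -0.0036 over all genes. RT1-M1-2, RT1-Ba and RT1-Da were among the 20 and passed the count filter only through siSlc25a26, so they could hardly be called other than lower. When 10 counts were required in every library, the median was again -0.60. The siSlc25a26 libraries also serve as one arm of the comparison at rest, so the 2 sets of values are not independent.

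RT1-T24-1 went from 73.8, 64.5 and 67.7 CPM to 24, 26.7 and 23.4 CPM (-1.46, SE 0.08, adjusted p = 9.2e-07, edgeR) and RT1-T24-3 from 127, 122 and 134 CPM to 50.1, 53.2 and 48.8 CPM (-1.32, SE 0.06, adjusted p = 4.03e-07, edgeR). The RT1-A and most RT1-CE rows changed less and were not called, with RT1-A2 at -0.43 (SE 0.07) and RT1-CE5 at -0.43 (SE 0.07). The class I sum in the libraries labelled siSlc25a26.PE was 0.628 times that in siSlc25a26, and RT1-A and RT1-CE rows held 53.8% ± 0.8 of it (SD, n = 3). RT1-CE2, called at -0.62, lost its call without siSlc25a26 replicate 1 (-0.53) or siSlc25a26.PE replicate 3 (-0.56).

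Psmb9 (-1.07, SE 0.08), Psmb10 (-0.88, SE 0.09) and Psmb8 (-0.84, SE 0.09) were all called lower, as were Tap2 (-0.95, SE 0.09), Tap1 (-0.87, SE 0.07), Tapbpl (-0.76, SE 0.07) and Nlrc5 (-0.79, SE 0.07). Their levels in the libraries labelled siSlc25a26.PE were still above those of siNeg and siNeg.PE in CPM, but those of Nlrc5 overlapped both control groups in FPKM. Psmb9, for one, was at 52.7, 55.9 and 46.6 CPM there, against 6.05, 5.34 and 4.57 CPM in siNeg. B2m (-0.19, SE 0.05) was not called.

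Tapbp (-0.58, SE 0.07) and Psme1 (-0.58, SE 0.06) had an adjusted p under 0.05 and a fold change just below 1.5. Canx, at 0.44 (SE 0.07), was highest of the set in this contrast and below the threshold. Among the few class II calls, RT1-Da and RT1-Ba had at most 12 counts in any library labelled siSlc25a26.PE, and RT1-Db2 lost its call without any one of siSlc25a26 replicates 1 (-0.93) and 2 (-0.65) or siSlc25a26.PE replicates 1 (-0.84) and 3 (-0.74). Ciita was not called (-0.59, SE 0.35), but was at -1.15 and called without siSlc25a26.PE replicate 1. Ifnb1 went from 50, 53 and 55 counts to 4, 7 and 7 counts (-2.90, SE 0.28).

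Whether PE acted differently in the presence of siSlc25a26 was tested as an interaction over all 12 libraries. Of 42 tested members 5 were called lower, meaning that PE lowered them more, or raised them less, with siSlc25a26, beside 3.34% of all 14097 tested genes. None was called higher by edgeR (1 at an unadjusted p under 0.05), DESeq2 or limma-voom, beside 2.16% of all genes. RT1-S3 differed by -1.54 (SE 0.15, adjusted p = 0.000178, edgeR), with PE effects of 0.66 in siNeg and -0.85 with siSlc25a26. RT1-T24-1 differed by -1.63 (SE 0.23, adjusted p = 0.00103, edgeR), with PE effects of 0.14 and -1.46.

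RT1-T24-4 differed by -0.86 (SE 0.10), Psmb9 by -0.69 (SE 0.15) and Nlrc5 by -0.63 (SE 0.17, adjusted p = 0.0374, edgeR). The Nlrc5 call was lost without any 1 of 10 of the 12 libraries (-0.48 to -0.69), with limma-voom (-0.65) and with limma on log2(FPKM + 0.1) (-0.99). Psmb10 was at -0.58 (adjusted p = 0.0319, edgeR), just under the 1.5-fold threshold. Psmb8, in the same catalytic core, showed a difference of 0.03 (SE 0.16), with PE effects of -0.89 and -0.84, and Tap1 one of -0.18 (SE 0.11).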

How the data were processed

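Total RNA of 12 NRVM libraries was sequenced. The authors deposited 2 tables of genes by libraries, one of counts and one of FPKM (fragments scaled to gene length and library size). The deposited counts are estimated counts, since part of them are not whole, and were rounded here. The submitters' processing notes name HISAT, Bowtie2 and Rnor_6.0. The counting program, annotation and strand setting were not given in the sources used here, and the paper linked to the series describes another knockdown.

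Counts were tested with edgeR 4.0.16 (R 4.3.3; TMM scaling, filterByExpr, quasi-likelihood test, Benjamini-Hochberg adjustment over all tested genes), with only the libraries of the 2 groups compared, and all 12 for the interaction. Genes past a 1.5-fold change with an adjusted p below 0.05 were called. The SE beside an edgeR value is the size of the log2 fold change divided by the square root of the F statistic. The plan had foreseen plain counts. CPM values use TMM-scaled library sizes, and 3 counts correspond to 0.0992 to 0.120 CPM. Shares were compared by exact permutation tests (scipy 1.17.1). Alternatives used DESeq2 1.42.0 and limma 3.58.1, the latter also on log2(FPKM + 1) and log2(FPKM + 0.1). The edgeR fits were tested on simulated data. Replicates differed by more than sampling noise in every pair.

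Members with a mean of at least 1 CPM in some group may be named with values, and others by name or count; called members under that level are given by their counts or CPM. From other lists up to 4 called genes with the largest change are named. Some of the list genes are not reported here. Irf1, Psmb5, Psmb6, Psmb7 and Cd163 were added after their values were seen. Members and lists were chosen with earlier results of these data known. Deviations of same-numbered libraries correlated weakly (-0.09 to 0.22, with the highest values in comparisons that used siNeg.PE), so numbers were not treated as pairs. NCBI Gene IDs of all 49 members, and of 16962 of 18469 genes, matched the RefSeq table.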

Additional observations from a re-analysis of the deposited data

Results flagged for a closer look

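For 5 members the PE effect with siSlc25a26 differed from that with siNeg by the interaction test. The difference (log2, PE effect with siSlc25a26 minus PE effect with siNeg) was -1.54 for RT1-S3, -1.63 for RT1-T24-1, -0.86 for RT1-T24-4, -0.69 for Psmb9 and -0.63 for Nlrc5. Slc25a26, whose own level under PE did not differ between the siRNAs, had a difference of 1.06 (SE 0.13, adjusted p = 0.000466, edgeR quasi-likelihood test). The Nlrc5 call was lost with limma-voom (-0.65), which gave 4 lower members. Reads of RT1-S3 and the RT1-T24 rows could be divided with other class I rows, and the FPKM per CPM of RT1-T24-1, RT1-T24-4 and Nlrc5 varied between groups. The part of either in the differences was not tested.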

How the results depend on the processing

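The count of members called higher stayed between 28 and 36 in siSlc25a26 against siNeg (33) and between 26 and 33 in siSlc25a26.PE against siNeg.PE (29) under 10 alternatives each, and Cd74 was the 1 lower call throughout. Without 1 library each, these counts ran from 33 to 33 and from 28 to 29. PE in siNeg gave 0 higher and 3 lower members with limma on log2(FPKM + 1), and 0 to 1 and 4 to 6 without 1 library each. With no fold change threshold it gave 2 and 18, beside 3456 and 3329 of all genes. PE with siSlc25a26 gave 3 higher and 31 lower with no fold change threshold, beside 3634 and 3585 of all genes. It gave 18 to 22 lower without 1 library each. The interaction gave 4 lower members with limma-voom, 10 with limma on log2(FPKM + 1), 9 on log2(FPKM + 0.1), and 4 to 7 without 1 library each. With RT1-A and RT1-CE rows only, the log2 ratio of the class I sum was 3.33 (3.92 with all rows) in siSlc25a26 against siNeg, -0.47 (-0.24) for PE in siNeg and -0.44 (-0.67) for PE with siSlc25a26, where FPKM gave -0.84. RT1-Ba had 0 counts in all siNeg.PE libraries and 3 in each siNeg library, so its fitted interaction is unreliable. It was not called there (1.76, SE 1.02), and was called lower at -1.10 on log2(FPKM + 0.1). The causes were not tested, apart from what a lower threshold or fewer rows does by construction.

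Over all genes, the alternatives gave 831 to 3223 higher (1233) and 451 to 2998 lower (996) for siSlc25a26 against siNeg, 622 to 2744 (1054) and 754 to 2744 (1108) for siSlc25a26.PE against siNeg.PE, 854 to 3456 (1708) and 733 to 3329 (1130) for PE in siNeg, 559 to 3634 (1389) and 1325 to 3585 (1436) for PE with siSlc25a26, and 163 to 773 (305) and 411 to 808 (471) for the interaction, which had 301 lower without siNeg.PE replicate 3. On log2(FPKM + 1) the median of all genes was -0.12 for PE with siSlc25a26 and -0.11 for the interaction, and 27.2% and 23.5% of calls were higher, against 49.2% and 39.3% from counts. The members' medians on that scale were -0.60 and -0.32.

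With the replicate number as a replicate block, 33 and 1 members were called higher and lower in siSlc25a26 against siNeg, 29 and 1 in siSlc25a26.PE against siNeg.PE, 1 and 6 for PE in siNeg, 0 and 20 for PE with siSlc25a26 and 0 and 6 for the interaction. The added calls were RT1-T24-3 (-0.66) for PE in siNeg and RT1-N2 (-0.61) for the interaction. Correlations of same-numbered libraries lay between -0.09 and 0.22, so the numbers were not taken as pairs.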
